A study of Arabidopsis thaliana with 4 samples.

Results

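The genes described here are those whose transcripts were lowest on the AS2 overexpressing array while the as1-1, as2-1 and wild type arrays stayed close together. They were chosen on the deposited signals themselves, with values under 43 raised to 43. A probe set, the group of short probes on the array that reads 1 transcript, was a member where the lowest of the as1-1, as2-1 and wild type signals was at least 80 and at least 1.5 times the AS2 overexpressing signal. The highest over the lowest of those 3 signals had also to be under 1.5. Of 22746 probe sets on the array, 156 met these values and 155 were kept. BCAT4 (694.9 on the AS2 overexpressing array, against 2317.9, 2845.1 and 2175.1 on the as1-1, as2-1 and wild type arrays) was left out by name, since the rule excludes it, together with 7 other named genes that did not meet the values and all named plastid genome genes, of which 0 met them. Among the 155 members, 77 were listed with 1 gene, 3 with several genes and 75 with none. The module therefore holds unnamed members for which an excluded gene or a plastid gene cannot be recognised.

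The study set shoot apices of an AS2 overexpressing line, the as1-1 mutant and the as2-1 mutant beside wild type Arabidopsis thaliana, with 1 Affymetrix array for each of the 4 genotypes. All plants were of the Col-0 background. They were 14 days old and kept on soil in long days (16 hours light, 8 hours dark), and the tissue was the shoot apex with its leaf primordia. The sources used here do not give the promoter that drives AS2, the number of plants per array or the number of independent lines. The series' free text mentions embryos where the tissue labels name the shoot apex, and the tissue labels were followed. With 1 array per genotype no value has a replicate or an error, no test was run, and every difference describes these 4 arrays only. Because all 4 arrays chose the members, every expression value below is a description and supports nothing beyond itself.

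AS2 is a plant-specific nuclear protein of the LOB domain family that works with the MYB-domain protein AS1 in young leaf primordia. The pair is known for repressing meristem genes in the leaf and for helping to set apart its upper and lower sides. Loss of either gene gives lobed, curled leaves, and strong AS2 expression gives leaves curled the other way. In whole apices, fewer cells of a type and less RNA per cell cannot be told apart.

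The arrays had similar overall scale, with a mean signal between 198.4 and 198.5 after the top and bottom 2% of probe sets were dropped. The median signal was 75.7 on the AS2 overexpressing array and lay between 80.7 and 82.5 on the other arrays. Neither AS1 nor AS2 was named on the array in the table used here, so the genotypes could not be checked on the genes themselves. Defining markers of the apex were thinly covered. The meristem genes CLV3 and LAS were both under 43 on all 4 arrays, and the stomatal lineage gene SPCH had 188.8 on the AS2 overexpressing array and 193.5, 216.8 and 215.1 on the as1-1, as2-1 and wild type arrays. Among named genes of the lower leaf side, YAB3 had 394.2 on the AS2 overexpressing array and between 369.1 and 434.3 on the others. YAB5, which the rule excludes, had 4.9 on the AS2 overexpressing array, against 350.8 in as1-1, 383.9 in as2-1 and 149.7 in wild type. AGO7, a leaf polarity gene that is not taken here as a marker of the lower side, was weak. It had 45.2 on the AS2 overexpressing array, 55.2 in as1-1, 82.0 in as2-1 and 24.9 in wild type.

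Measured from the lowest of the 3 other signals, most members differed by less than 2-fold. The lowest of the other signals over the AS2 overexpressing signal had a median of 1.68 over the 155 members and reached 4.74, with 32 members at 2-fold or more, 4 at 3-fold or more and 56 under 1.6-fold. The median log2 difference of the AS2 overexpressing array was -0.95 from as1-1, -0.96 from as2-1 and -0.84 from wild type. Over all probe sets that reached 80 on either array compared, 10.2% were at least 1.5-fold lower and 7.03% higher in AS2 overexpressing than in as1-1. The shares were 9.38% lower and 6.47% higher against as2-1, and 7.44% lower and 5.33% higher against wild type. The rule fixes that every member is lower against each of the other arrays, so nothing is read from that count. Of 8745 probe sets with the other arrays within 1.5-fold of each other and 80 reached by the lowest of them or by the AS2 overexpressing array, 1.78% met the rule's values.

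**Figure D1:**
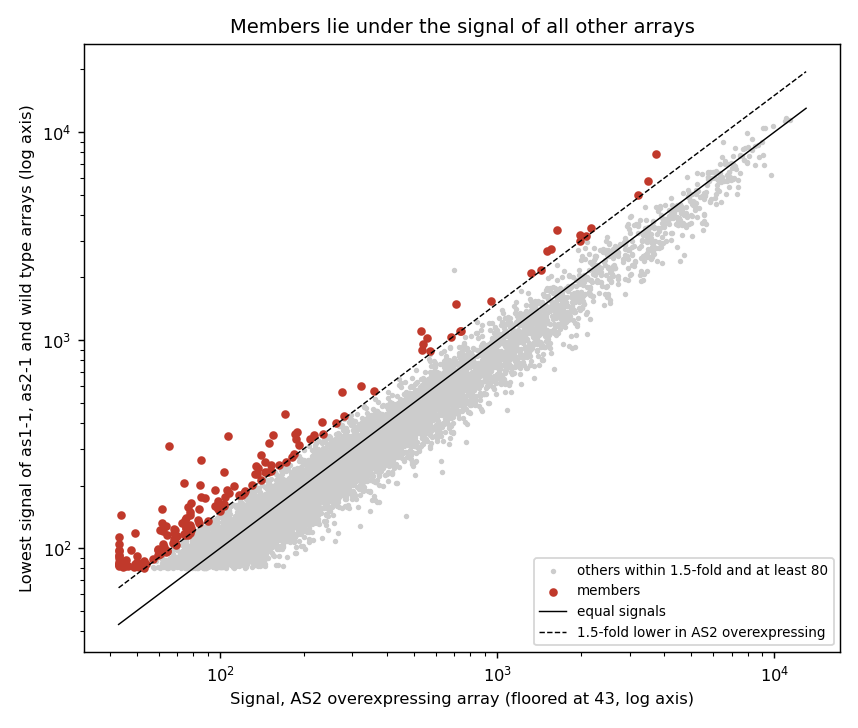
Each point is 1 probe set whose as1-1, as2-1 and wild type signals lay within 1.5-fold of each other and at 80 or more, with its AS2 overexpressing signal on the x axis and the lowest of its as1-1, as2-1 and wild type signals on the y axis, both on log axes. The 155 members (red) lie on or above the dashed line of 1.5-fold, with signals from the floor of 43 to 3722.5 on the AS2 overexpressing array, and the 1 grey point well above the line is BCAT4.

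MYC genes and genes of jasmonate synthesis were looked at after the values of members were seen. Of 4 such genes named on the array, 3 reached a signal of 80 on some array and 2 were members. Of the 8745 probe sets with close other arrays, 1.78% met the rule's values. The 4 genes were not filtered in that way, and nothing is read from their count. MYC4, a basic helix-loop-helix transcription factor that acts with its relatives in the jasmonate response, had a signal of 42.4 on the AS2 overexpressing array, against 84.4 in as1-1, 93.4 in as2-1 and 84.0 in wild type. Its AS2 overexpressing signal lay just under the floor, so it was at least 1.95-fold lower than the lowest of the others. OPCL1, a CoA ligase of jasmonate synthesis in the peroxisome, had 76.9 on the AS2 overexpressing array, against 142.8 in as1-1, 152.7 in as2-1 and 119.9 in wild type. Both genes were weakly expressed. That the AS2 overexpressing signal lay under the other 3 is fixed by the rule.

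One relative of MYC4 was measured. MYC3, a relative of MYC4 that acts in the same response, had 165.6 on the AS2 overexpressing array, 260.3 in as1-1, 242.5 in as2-1 and 167.9 in wild type. The AS2 overexpressing array was thus level with wild type for MYC3 (log2 difference -0.02) and under both mutants. JMT, a jasmonate methyltransferase gene, lay under the floor on all 4 arrays and so could not show a difference. With a floor of 64 the ratio of MYC4 was 1.31 and it was no longer a member. OPCL1 stood at 1.46 with quantile normalization, 1.43 with centring on all probe sets and 1.55 with centring on probe sets of above-median level.

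JAL22 and JAL33 encode jacalin-related lectins, proteins with a carbohydrate-binding domain, and both were members. This group, too, was looked at after the values of members were seen. Of 4 genes named JAL on the array, 3 reached a signal of 80 on some array. The rule's values were met by 1.78% of the 8745 probe sets with close other arrays. The 4 genes were not filtered in that way, and nothing is read from the count of 2. JAL22 had 322.1 on the AS2 overexpressing array, against 601.1 in as1-1, 633.9 in as2-1 and 652.9 in wild type, 1.87-fold lower than the lowest of them. JAL33 had 218.0 on the AS2 overexpressing array, against 416.2 in as1-1, 470.4 in as2-1 and 349.1 in wild type, a ratio of 1.6. For JAL22 the other 3 signals were nearly level, while for JAL33 both mutants were above wild type. JAL34, another lectin of the family, had 660.9 on the AS2 overexpressing array, 790.0 in as1-1, 1039.1 in as2-1 and 594.6 in wild type, and so was slightly higher than wild type. JAL23 was under the floor on all 4 arrays. With centring on all probe sets the ratio of JAL33 was 1.47. It was 1.59 both with quantile normalization and with centring on probe sets of above-median level.

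Serine carboxypeptidase-like genes, a family of secreted and vacuolar hydrolases and acyltransferases, were looked at after the values of members were seen. Of the 8745 probe sets with close other arrays, 1.78% met the rule's values. Of 29 genes of the family named on the array, 14 reached a signal of 80 on some array and 2 were members. The family genes were not filtered for close other arrays, so their count is not set against that share. The first, scpl31, had 61.7 on the AS2 overexpressing array, against 156.8 in as1-1, 188.1 in as2-1 and 154.5 in wild type, and was 2.50-fold lower than the lowest of them. SCPL27 had 77.6 on the AS2 overexpressing array, against 175.7 in as1-1, 152.0 in as2-1 and 129.6 in wild type, a ratio of 1.67. Without these members, 12 of the family remain that reached 80. Against wild type, 0 of the 12 were at least 1.5-fold lower on the AS2 overexpressing array and 4 were at least 1.5-fold higher. Over all probe sets that reached 80 on either array, 7.44% were lower and 5.33% higher. Against as1-1, 1 of the 12 was lower (SCPL34) and 0 were higher, beside 10.2% and 7.03%. Against as2-1, 1 was lower (scpl20) and 0 were higher, beside 9.38% and 6.47%. Taking out the members, which the rule makes lower, also lowers these counts of 0 or 1 of 12. With the 2 members, 3 of the 14 were lower against as1-1, 3 against as2-1 and 2 against wild type. None of these counts of lower genes is read as a trait of the family. The 4 higher than wild type were scpl35 (log2 difference 1.41), scpl46 (1.16), SCPL49 (0.67) and scpl50 (0.64).

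**Figure D2:**
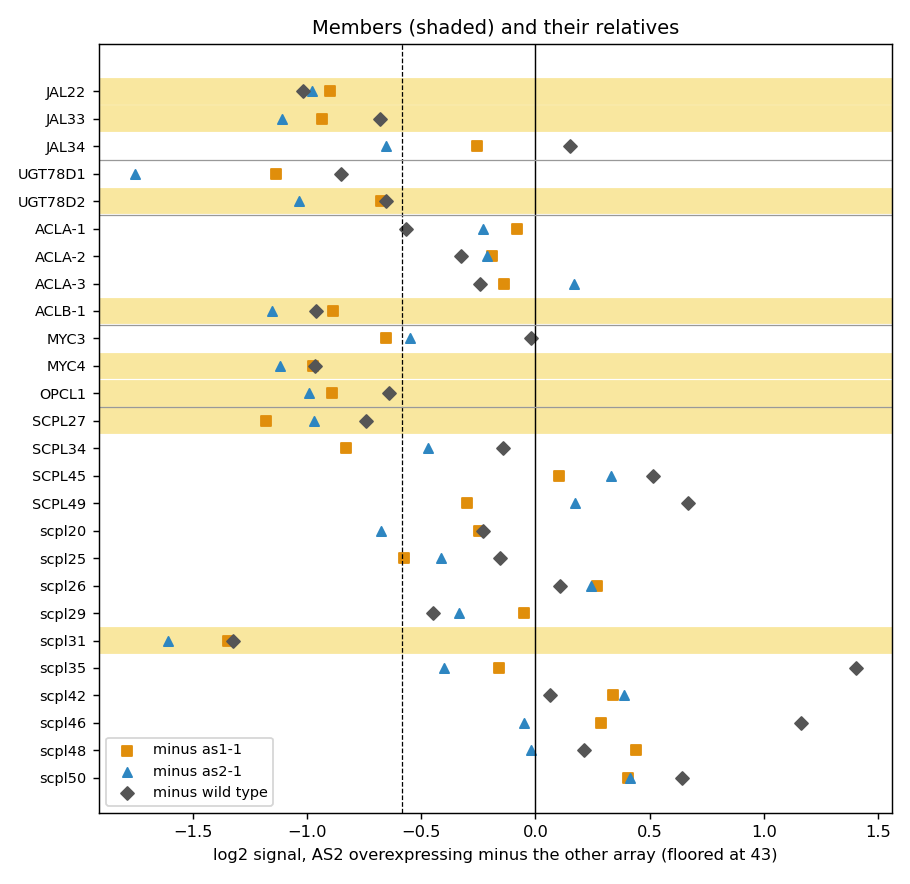
Log2 signal of the AS2 overexpressing array minus each of the other arrays, 1 symbol per array, for members (shaded) and for the named relatives of 5 groups that reached 80 on at least 1 array; the dashed line marks 1.5-fold lower. All 3 symbols lie left of the dashed line for each shaded gene, by the rule, and for UGT78D1. The symbols of the other serine carboxypeptidase-like genes lie on both sides of 0.

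Enzymes of metabolism were represented by CuAO1, ACLB-1 and UGT78D2. CuAO1, a copper amine oxidase that breaks down polyamines, had 76.8 on the AS2 overexpressing array, against 163.9 in as1-1, 173.5 in as2-1 and 157.2 in wild type. Its other 3 signals differed by at most 1.1-fold, and the AS2 overexpressing signal was 2.05-fold under the lowest of them. ACLB-1, the B subunit of the ATP-citrate lyase that supplies acetyl-CoA in the cytosol, had 556.3 on the AS2 overexpressing array, against 1028.0 in as1-1, 1238.5 in as2-1 and 1082.6 in wild type, a ratio of 1.85. The genes for the A subunit differed less. ACLA-1 had 1444.2 on the AS2 overexpressing array, 1525.4 in as1-1, 1694.6 in as2-1 and 2140.4 in wild type, and ACLA-2 and ACLA-3 were within a log2 difference of 0.33 of wild type.

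UGT78D2, a glucosyltransferase of flavonols and anthocyanins, had 97.8 on the AS2 overexpressing array, against 156.4 in as1-1, 200.2 in as2-1 and 153.7 in wild type, a ratio of 1.57. Its relative UGT78D1, a rhamnosyltransferase of flavonols, was also lowest on the AS2 overexpressing array, at 207.5, against 455.9 in as1-1, 699.4 in as2-1 and 374.1 in wild type. UGT78D1 was 1.80-fold under the lowest of these but is not a member, because its other 3 signals were too far apart. UGT78D3 lay under the floor on all 4 arrays. UGT78D2 itself stood under the limit at 1.49 with quantile normalization and 1.44 with centring on all probe sets. It stayed above the limit, at 1.54, with centring on probe sets of above-median level.

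Small protective proteins gave the member with the highest signals among those with a gene name. AT1G54410, the small dehydrin HIRD11, had 3482.8 on the AS2 overexpressing array, against 7010.2 in as1-1, 6155.8 in as2-1 and 5844.8 in wild type, 1.68-fold lower than the lowest of them. AT2G44060, a late embryogenesis abundant gene also called LEA26, had 737.7 on the AS2 overexpressing array, against 1109.4 in as1-1, 1280.7 in as2-1 and 1143.7 in wild type. LEA26 sat at the edge of the rule with a ratio of 1.5. It was under the limit with centring on probe sets of above-median level (1.45) and on all of them (1.38), and above it with quantile normalization (1.56).

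The remaining members with a gene name were YLS5, ATL8 and CR4. YLS5, of the DJ-1 family and named for its expression in yellowing leaves, had 74.4 on the AS2 overexpressing array, against 136.8 in as1-1, 190.3 in as2-1 and 146.5 in wild type, a ratio of 1.84. Its relative DJ1D had 485.3 on the AS2 overexpressing array, 470.5 in as1-1, 377.1 in as2-1 and 746.8 in wild type, and was lower against wild type alone. ATL8, of a family of RING finger proteins that includes ubiquitin ligases, had 59.5 on the AS2 overexpressing array, against 146.4 in as1-1, 114.8 in as2-1 and 98.9 in wild type, a ratio of 1.66. CR4, also called ACR4, is a receptor kinase of outer cell layers and of dividing root stem cells. It had 78.1 on the AS2 overexpressing array, against 118.9 in as1-1, 134.8 in as2-1 and 120.4 in wild type. CR4 had a ratio of 1.52 as deposited and lay under the limit in all 3 rescalings, between 1.40 and 1.47.

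**Figure D3:**
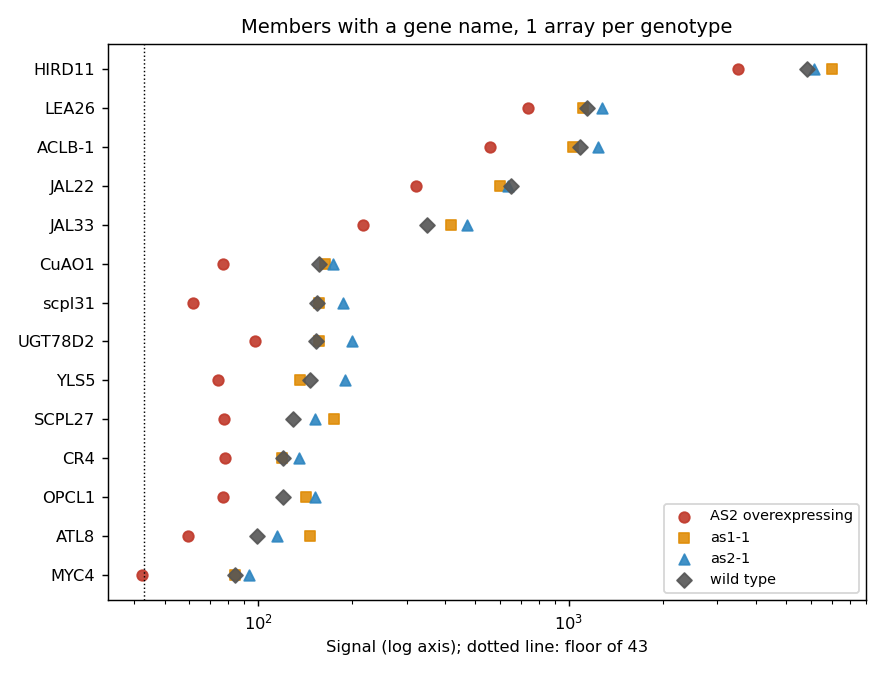
Signal on each of the 4 arrays (log x axis) for the 14 members that have a gene name beyond their locus, ordered by the wild type signal, 1 array per genotype. By the rule, the AS2 overexpressing point is left of the 3 others for every gene, from MYC4 at 42.4 just under the floor to HIRD11 at 3482.8.

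A further 63 members are named by their locus alone in the sources used here, so no role is given for them. AT4G27300 had the largest ratio among all members with 1 gene: its signal was 43.9 on the AS2 overexpressing array, against 163.4 in as1-1, 197.1 in as2-1 and 144.6 in wild type, 3.29-fold lower than the lowest. AT3G13980 followed with 85.2 on the AS2 overexpressing array, against 380.3 in as1-1, 264.0 in as2-1 and 310.1 in wild type, a ratio of 3.10. AT4G27300 lay just above the floor on the AS2 overexpressing array, whereas AT3G13980 was clear of it. AT1G73600 had 170.9 on the AS2 overexpressing array, against 442.8 in as1-1, 634.5 in as2-1 and 445.6 in wild type, a ratio of 2.59. AT1G32190 had 49.4 on the AS2 overexpressing array, against 140.6 in as1-1, 117.8 in as2-1 and 134.4 in wild type, a ratio of 2.38.

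AT1G06100 and AT3G45160 had the same order of arrays as AT1G73600, with as2-1 highest and as1-1 level with wild type. AT1G06100 had 155.2 on the AS2 overexpressing array, against 366.2 in as1-1, 497.4 in as2-1 and 349.0 in wild type. AT3G45160 had 274.2 on the AS2 overexpressing array, against 566.0 in as1-1, 799.5 in as2-1 and 570.2 in wild type. Their ratios were 2.25 and 2.06. For AT1G73600, AT1G06100 and AT3G45160 the log2 difference of the AS2 overexpressing array was therefore larger from as2-1 (-1.89, -1.68 and -1.54) than from wild type (-1.38, -1.17 and -1.06).

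The next members by ratio differed in which of the other arrays was highest. AT4G28780 had 190.0 on the AS2 overexpressing array, against 365.1 in as1-1, 422.4 in as2-1 and 362.5 in wild type (ratio 1.91). AT2G29995 had 77.6 on the AS2 overexpressing array, against 174.4 in as1-1, 157.3 in as2-1 and 143.9 in wild type (1.85). AT5G24430 had 75.3 on the AS2 overexpressing array, against 170.5 in as1-1, 138.9 in as2-1 and 178.5 in wild type (1.84). Wild type was the lowest of the other 3 for AT4G28780 and AT2G29995 and the highest for AT5G24430. AT1G75170 had 49.9 on the AS2 overexpressing array, against 97.4 in as1-1, 94.7 in as2-1 and 91.7 in wild type (1.84). AT1G52000 had 84.0 on the AS2 overexpressing array, against 153.5 in as1-1, 227.3 in as2-1 and 225.1 in wild type (1.83). AT1G52000 was the 1 gene in this group with as1-1 clearly under as2-1 and wild type.

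AT3G11930 was highest in as1-1, at 72.9 on the AS2 overexpressing array, against 188.4 in as1-1, 131.8 in as2-1 and 137.7 in wild type (1.81). AT5G45560 had 64.5 on the AS2 overexpressing array, against nearly level signals of 116.3 in as1-1, 123.5 in as2-1 and 122.0 in wild type (1.80). AT2G38800 had 187.1 on the AS2 overexpressing array, against 402.0 in as1-1, 339.2 in as2-1 and 334.5 in wild type (1.79). These were followed by genes with similar ratios at lower levels, so that the AS2 overexpressing signal came close to the floor in some. AT2G24440 had 68.9 on the AS2 overexpressing array, against 143.1 in as1-1, 145.0 in as2-1 and 122.0 in wild type (1.77). AT3G48970 had 46.6 on the AS2 overexpressing array, against 98.0 in as1-1, 82.2 in as2-1 and 86.9 in wild type (1.76).

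AT1G01630 was higher, with 232.7 on the AS2 overexpressing array, against 422.9 in as1-1, 502.9 in as2-1 and 405.6 in wild type (1.74). AT1G22160 had 98.1 on the AS2 overexpressing array, against 194.7 in as1-1, 169.2 in as2-1 and 183.6 in wild type (1.72). The last of the 25 were again weakly expressed. AT5G06440 had 68.4 on the AS2 overexpressing array, against 143.9 in as1-1, 154.2 in as2-1 and 117.8 in wild type (1.72). AT5G51260 had 50.1 on the AS2 overexpressing array, against 88.1 in as1-1, 85.8 in as2-1 and 90.9 in wild type (1.71). Over these 25 genes with the largest measured ratios, 5 have a gene name. The highest of the other 3 signals was as2-1 in 14, as1-1 in 8 and wild type in 3. Over all 155 members the shares were 41.3% for as2-1, 36.1% for as1-1 and 22.6% for wild type. Over the 8389 probe sets with the other 3 arrays within 1.5-fold and at least 80 they were 31.6%, 32.7% and 35.7%.

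For 12 members, 8 of them with 1 gene, the AS2 overexpressing signal was at or under the floor and the ratio is a lower bound. Besides MYC4, AT2G15280 had 42.9 on the AS2 overexpressing array, against 151.5 in as1-1, 113.5 in as2-1 and 127.7 in wild type, at least 2.64-fold lower than the lowest. AT1G18810 had 29.4 on the AS2 overexpressing array, against 125.9 in as1-1, 105.2 in as2-1 and 131.0 in wild type, at least 2.45-fold lower. The remaining bounds were at least 2.25-fold for AT1G62290, 2.14-fold for AT5G18550, 2.08-fold for AT3G44970, 1.99-fold for AT4G30820 and 1.91-fold for AT4G19380. All 8 were weakly expressed on every array, with the lowest of the other signals between 82.1 for AT4G19380 and 113.5 for AT2G15280.

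The other 36 members known by locus had ratios from 1.5 to 1.68. Strongly expressed ones, with at least 1000 on each of the as1-1, as2-1 and wild type arrays, were AT3G05730, AT4G23670, AT5G54940, AT5G39570 and AT4G29030. AT4G23670 had 2171.3 on the AS2 overexpressing array, against 3996.6 in as1-1, 3689.5 in as2-1 and 3463.9 in wild type. AT3G05730 had 1979.1 on the AS2 overexpressing array, against 3253.4 in as1-1, 3973.6 in as2-1 and 3189.5 in wild type. The ratios of these 5 genes lay between 1.51 and 1.61. At intermediate levels, with the lowest of the others between 179.7 and 881.5, were 12 genes: AT4G12340, AT3G46540, AT1G06640, AT4G16660, AT5G45350, AT1G15270, AT1G22890, AT3G52800, AT5G14540, AT5G66420, AT3G53400 and AT5G26600. The other 19 had 50.8 to 98.1 on the AS2 overexpressing array and between 80.7 and 155.6 as the lowest of the others. They were AT2G38740, AT2G28940, AT5G12110, AT4G16770, AT1G19380, AT4G21650, AT1G79630, AT2G19780, AT3G56590, AT3G05675, AT2G40460, AT1G03820, AT5G40470, AT2G22420, AT1G59910, AT5G01790, AT2G03280, AT1G04990 and AT1G49730.

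Probe sets without a single gene made up the rest of the module. The 75 members with no listed gene were 48.4% of the module, where such probe sets were 38.4% of the array. The share of the array includes probe sets too weak to be members, so nothing is read from the difference. The ratios of the 75 ran from 1.5 to 4.74 with a median of 1.70, beside 1.5 to 3.29 and a median of 1.65 for the 77 with 1 gene. The largest ratio of the module was that of an unnamed probe set with 65.6 on the AS2 overexpressing array, against 400.5 in as1-1, 311.0 in as2-1 and 390.6 in wild type. The next unnamed one had 106.4 on the AS2 overexpressing array, against 387.8 in as1-1, 353.2 in as2-1 and 346.8 in wild type. Their ratios were 4.74 and 3.26, and the closeness of the other 3 signals is fixed by the rule. The 3 probe sets listed with several genes read AT2G18570 with AT2G18560 (ratio 2.02), AT5G45470 with AT5G45460 (1.82) and AT1G72510 with AT2G09970 (1.66), and which gene of each pair gave the signal cannot be told.

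The limit of 1.5 fell in a dense run of values. Just inside were AT1G49730, AT1G04990, AT2G44060, AT2G03280 and AT4G29030, with ratios of 1.5 to 1.51. Just outside among named genes were PMEPCRF with 78.7 on the AS2 overexpressing array, against 148.4 in as1-1, 155.6 in as2-1 and 117.5 in wild type (ratio 1.49), AT5G55400 (1.49), AT3G14595 (1.49), AT1G06500 (1.48) and AT3G24150 (1.48).

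Within the 1.5-fold that the rule allows between them, the mutants lay above wild type more often than below it. Both as1-1 and as2-1 were above wild type for 82 of the 155 members (52.9%) and both below it for 35 (22.6%). The same shares were 37.7% and 35.7% over all 8389 probe sets with the other 3 arrays within 1.5-fold and at least 80. The median log2 difference from wild type over the members was 0.06 in as1-1 and 0.07 in as2-1, and over those 8389 probe sets 0.01 and 0.00. The rule used the same 3 signals, so these shares are a description, and no test of the order was run. ATL8 (log2 difference from wild type 0.57 in as1-1 and 0.22 in as2-1) and AT3G52800 (0.52 in both) were among those with both mutants above, and AT2G40460 (-0.58 and -0.55) and AT5G14540 (-0.48 in both) among those with both below.

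Members were found at all levels from the rule's minimum of 80 upward, and lower levels could hold none. Of probe sets whose lowest other signal was 80 to 160, 2.99% were members (79 of 2641). The share was 1.45% from 160 to 320, 0.926% from 320 to 640, 1.03% from 640 to 1280 and 2.28% at 1280 or more (14 of 614). At 1280 or more the opposite pattern, AS2 overexpressing highest, took 0 probe sets as deposited, 2 with centring on all probe sets and 1 with quantile normalization. Of those 14 strongly expressed members, 12 were kept with quantile normalization and 12 with centring on probe sets of above-median level, and 6 with centring on all probe sets.

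**Figure D4:**
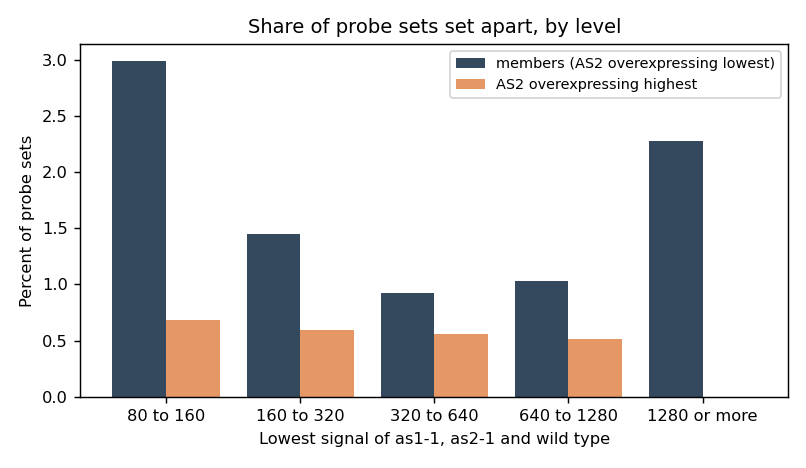
Percent of probe sets that were members, and percent on which the AS2 overexpressing array was highest by the same rule turned over, by the lowest of the as1-1, as2-1 and wild type signals (bins from 80 upward, other arrays within 1.5-fold). The member share is 2.99% in the lowest bin and 2.28% in the highest, and the opposite pattern stays under 0.7% in every bin. Probe sets whose lowest other signal is under 80 are in no bin, though the turned-over rule allows them. From the lowest bin upward, the bins hold 18, 16, 9, 4 and 0 of the 70 probe sets of the opposite pattern.

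The same rule was turned to the other side and to the other arrays. The AS2 overexpressing array stood lowest on 156 probe sets (1.78%) and highest on 70 (0.8%). Wild type stood lowest on 153 and highest on 173, as1-1 lowest on 34 and highest on 51, and as2-1 lowest on 58 and highest on 54. As deposited, standing lowest was thus about as frequent for the AS2 overexpressing array as for wild type. These counts moved with the scaling. The AS2 overexpressing balance of lowest to highest was 140 to 90 with each array centred on the probe sets of above-median level, 116 to 89 with quantile normalization, and turned over to 94 to 161 with centring on the median of all probe sets, where wild type stood lowest on 219 and highest on 111. Centring on all probe sets raised the log2 difference of the AS2 overexpressing array by 0.12 from as1-1, 0.09 from as2-1 and 0.12 from wild type, while the median over the members still lay between -0.87 and -0.71.

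**Figure D5:**
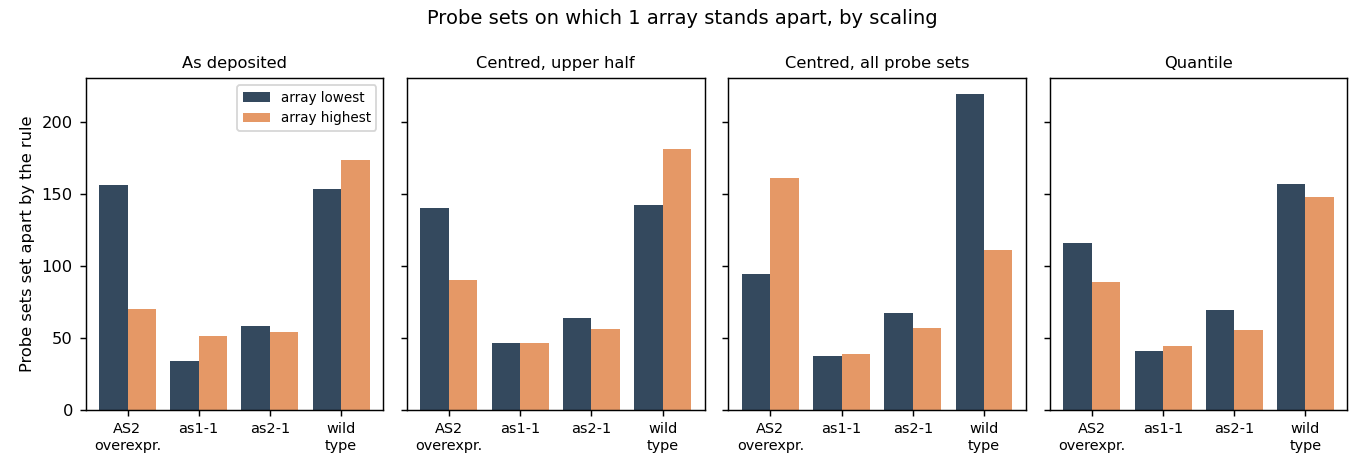
Number of probe sets on which 1 array was lowest (dark) or highest (light) by the same rule, for each of the 4 arrays and for 4 scalings of the signals. As deposited the AS2 overexpressing array was lowest on 156 and highest on 70, and with centring on all probe sets on 94 and 161.

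Gene lists of the shoot apex and of related pathways held none of the members. Of 129 genes in 16 lists, 25 in 10 lists were named on the array, and 0 of them belong to the module once BCAT4 is set aside. Of the 8745 probe sets with close other arrays, 1.78% met the rule's values. The 25 genes were not filtered in that way, and with so few of them nothing is read from the count of 0. The glucosinolate list has 4 named genes, and the rule excludes BCAT4, AT2G31790 and UGT74B1 of them by name. Of the 4, 3 were at least 1.5-fold lower against as1-1 (10.2% of all probe sets were), 3 against as2-1 (9.38%) and 2 against wild type (7.44%). All of these were excluded genes, so the counts say nothing about the list. GTR2, which is not excluded, had log2 differences of -0.06 from as1-1, -0.40 from as2-1 and 0.40 from wild type. PHV, which encodes a homeodomain leucine zipper factor of the upper leaf side, was higher, with 473.3 on the AS2 overexpressing array against 303.3 in as1-1, 275.4 in as2-1 and 301.9 in wild type. Of 3 named photosynthesis genes, which mark green leaf cells, RCA had 6761.6 on the AS2 overexpressing array, 4971.3 in as1-1, 5583.6 in as2-1 and 9159.9 in wild type, and the median log2 difference of the 3 from wild type was -0.44. The largest difference of the 3 was that of LHCB4.2, with 5852.9 on the AS2 overexpressing array, 3592.7 in as1-1, 1726.0 in as2-1 and 9224.4 in wild type. All 3 were thus below wild type and above both mutants, and the part of green cells in the members' values was not tested. Of 4 reference genes, PEX4 (487.5 on the AS2 overexpressing array, 516.6 to 548.5 in the mutants and 514.6 in wild type) and AT4G34270 (214.6, against 192.7, 215.0 and 184.2 in as1-1, as2-1 and wild type) differed by less than 1.5-fold. AT5G15710, also a reference gene, had 78.6 on the AS2 overexpressing array, 128.4 in as1-1, 85.6 in as2-1 and 79.6 in wild type, and was over 1.5-fold lower against as1-1 alone.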

How the data were processed

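Signal was measured on 4 Affymetrix arrays, 1 per genotype, placed by their genotype labels. The authors deposited a linear intensity per probe set in 1 table of 22746 probe sets; the sources used here do not name the software that made it. RNA was extracted and biotin-labelled cRNA prepared by the array maker's protocol, per the labels' protocols. Values under 43 were raised to 43 and used with no further scaling. Genes came from a platform annotation (13513 probe sets with 1 gene, 503 with several, 8730 with none) and current symbols from the RefSeq table of assembly TAIR10.1, which matched 13436 probe sets; no coordinates are printed. With 1 array per genotype, no test was run, and precision is limited by having so few arrays. The members and gene lists were chosen with earlier results of these data known, and the lists of relatives of named members after their values were seen. Named genes are all members with 1 gene, with the signal of every array for the 25 with the largest measured ratio. Alternatives were 3 scalings, 2 floors, a 2-fold limit, a level of 160, a tighter spread limit and the rule without 1 of the other arrays. The planned promoter and protein comparison was not run, because no sequence table was at hand. Calculations used Python 3.11.15, NumPy 2.4.6 and pandas 2.3.3. The code that applies the rule was run on simulated signals with planted differences and little noise. That run checks the code and says nothing about how reliable the members are.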

Additional observations from a re-analysis of the deposited data

How the results depend on the processing

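The number of members was 155 as deposited, 139 with centring on probe sets of above-median level, 115 with quantile normalization, 155 and 131 with floors of 25 and 64, 93 with centring on all probe sets, 91 with the tighter spread limit, 76 with a level of 160 and 32 with a 2-fold limit. Leaving 1 of the other arrays out of the rule gave 611 members without wild type, 243 without as1-1 and 283 without as2-1, since fewer conditions apply. Of the 155, 133 were kept with that centring, 112 with quantile normalization and 90 with centring on all probe sets.

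The lowest to highest ratio of the AS2 overexpressing array was 2.23 as deposited, and 0.584 with centring on all probe sets, where it reversed; the cause was not tested. It was 1.56 with centring on probe sets of above-median level, 1.30 with quantile normalization, 2.60 and 2.06 with floors of 25 and 64, 3.67 at 2-fold, 1.64 at a level of 160, 1.94 at the tighter spread limit, and 1.93, 1.76 and 1.79 without the wild type, as1-1 and as2-1 arrays. Against wild type, the probe sets lower by 1.5-fold or more numbered 885 as deposited and 543 with centring on all probe sets, an alternative added after the data were seen.

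Of 77 members with 1 gene, 4 (AT1G18810, AT1G32190, CuAO1 and scpl31) met the rule in all 10 alternatives applied to single genes. Of these 10, the floor of 25 and the rules without 1 of the other arrays cannot drop a member. All 77 were kept in each of those, which therefore check nothing. None of the 4 genes reached the level of 160, so no named member met every alternative. The lowest ratio of any was 1.26 (AT5G01790 with a floor of 64). No paired analysis was possible because each genotype has 1 array. Most members lie low, with 79 of 155 under 160 on the lowest of the other arrays, where signal over background is small.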

Other observations

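The 77 members with 1 gene were spread over all 5 nuclear chromosomes in about the proportions of the named genes on the array, with 29.9% on chromosome 1 (25.7% of named genes), 16.9% on 2 (16.3%), 19.5% on 3 (20.5%), 14.3% on 4 (14.6%) and 19.5% on 5 (22.4%). No members were direct neighbours, and 3 pairs had at most 10 protein-coding genes between them. AT2G38740, AT2G38800 and YLS5 (AT2G38860) followed each other with 5 genes between each, and AT3G05675 and AT3G05730 had 8 between them. The genes' length in the annotation had a median of 2429 bases over the members and 2105 over the named genes.

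One member gene, AT3G56590, had a second probe set, with 18.8 on the AS2 overexpressing array, 24.6 in as1-1, 27.9 in as2-1 and 48.9 in wild type. It was under the floor on the first 3 and just above it in wild type. The member probe set of AT3G56590 had 61.9 on the AS2 overexpressing array, against 128.3 in as1-1, 129.2 in as2-1 and 97.0 in wild type.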
